A study of Homo sapiens with 18 samples.

Results

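The comparison described here asks how far the response of T47D cells to niraparib differed between the WT and the PARP1 KO cells of its labels. It uses 12 of the 18 RNA-seq libraries of the series, 3 for each of WT with DMSO, WT with niraparib, PARP1 KO with DMSO and PARP1 KO with niraparib. The quantity is an interaction on the log2 scale, the niraparib effect (niraparib against DMSO) in PARP1 KO minus the niraparib effect in WT. A gene that fell in WT and moved less in PARP1 KO has an interaction above 0, and a gene that rose in WT and moved less in PARP1 KO has an interaction below 0. In the other 6 libraries the same lines had received olaparib, and they enter where the drugs are set against each other. T47D is an estrogen receptor-positive luminal breast cancer line. The WT cells are labelled T47D AAV and the PARP1 KO cells T47D JL, and niraparib or olaparib was given at 10 μmol/L for 48 h. Each genotype is represented by cells of 1 label, and the sources used here do not give how the knockout was made or whether it is a single clone. The methods describe 3 dishes per condition but do not tie a library to a dish, and a legend speaks of 1 representative experiment. P values therefore measure the spread between these libraries, at most that between dishes of an experiment. A difference between WT and PARP1 KO cannot be told apart from any other difference between these cell stocks.

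PARP1 is a nuclear enzyme that binds broken DNA and modifies itself and nearby proteins with chains of ADP-ribose, which recruits repair factors and then releases PARP1 from the break. Niraparib and olaparib occupy the NAD+ site of PARP enzymes, block the chain synthesis and hold PARP1 on DNA, a state called trapping. The study reported that olaparib bound PARP1 and PARP2 about equally, whereas niraparib preferred PARP1. Trapped PARP1 is an obstacle to replication forks, and cells without PARP1 are known to be less sensitive to these drugs.

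Library totals were between 28890837 and 52251288 counts, and 23396 genes with more than 10 counts over the 12 libraries were tested. PARP1 itself (chr1:226360691-226408093 of GRCh38) had 347, 373 and 369 CPM (counts scaled to the size of the library) in WT with DMSO, 315, 301 and 316 in WT with niraparib, 25, 24.2 and 25.1 in PARP1 KO with DMSO, and 24.1, 23.1 and 26.7 in PARP1 KO with niraparib. The genotypes did not overlap, and 7.35% of the WT level was left in PARP1 KO (difference of mean log2 CPM -3.77, exact two-sided permutation P = 0.00216 for 6 against 6 libraries, the smallest this design can give). The 10 luminal and epithelial markers examined were present in every library, TFF1 at the lowest level. Of 12 markers of other cell types, 11 stayed below 1 CPM in every library and COL1A1 lay between 86.3 and 164 CPM. The summed level of these 12 was 101 to 129 CPM in WT with DMSO, 119 to 166 in WT with niraparib, 87.2 to 106 in PARP1 KO with DMSO and 97.8 to 135 in PARP1 KO with niraparib. In each group 1 library stood apart from the other two, namely WT DMSO 1, WT niraparib 2, PARP1 KO DMSO 3 and PARP1 KO niraparib 3, with chi-square values per gene of 5.36 to 17.3 against their group mates and 3 to 3.24 between the others. These 4 libraries had 5.02% to 5.60% of their counts on mitochondrial genes, against 4.39% to 4.93% in the other 8. Counts without the 4 are given beside the main results, except for the difference between the drugs, which was not refitted without these 4 libraries. Their deviations from the group means were not alike. Those of WT DMSO 1, WT niraparib 2 and PARP1 KO niraparib 3 went together over genes (correlations of 0.623 to 0.666), whereas PARP1 KO DMSO 3 went against them (-0.488, -0.537 and -0.52) and PARP1 KO DMSO 1, which was kept, went with them (0.455, 0.485 and 0.488). Leaving out the 4 therefore keeps in the PARP1 KO DMSO group a library that deviates like those removed from the other groups.

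The interaction was called in 2149 genes (9.19% of those tested) by an adjusted P value under 0.05 together with a difference over 1.5-fold (edgeR), 820 above 0 (3.50%) and 1329 below 0 (5.68%). By the adjusted P value alone it was 5567 genes (23.8%). Without the 4 libraries that stand apart, 2156 genes were called, 876 above 0 and 1280 below 0. Niraparib changed 3064 genes in WT (13.1%), 1913 upward and 1151 downward, and 4 genes in PARP1 KO (0.0171%), all upward. In PARP1 KO 40 genes had an adjusted P value under 0.05 with no limit on size, and 2246 an unadjusted P value below 0.05. Without the 4 libraries 73 genes were called in PARP1 KO, and 10 with DESeq2. With DMSO alone the genotypes differed in 29 genes (0.124%), a number that with 1 library left out lay between 5 (WT DMSO replicate 1) and 42 (WT niraparib replicate 2). It was 68 without the 4 libraries, 102 with no filter on low counts and 3 with a block for the replicate number within genotype.

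The effects in PARP1 KO were small for the genes that moved in WT. Over the 1913 genes raised in WT the median log2 change was 0.97 in WT and 0.08 in PARP1 KO (quartiles -0.046 and 0.26). Of these genes 1251 (65.4%) had an effect of the same sign in PARP1 KO, and 179 (9.36%) one of more than 1.5-fold. Over the 1151 genes lowered in WT the medians were -0.95 and -0.049 (quartiles in PARP1 KO -0.17 and 0.11), with 687 (59.7%) of the same sign and 44 (3.82%) beyond 1.5-fold. The WT and PARP1 KO effects share no library. Over the 12454 genes of at least 2 CPM, the SD of the niraparib effect was 0.454 in WT and 0.141 in PARP1 KO, and that of the difference between the genotypes with DMSO was 0.179.

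**Figure D1:**
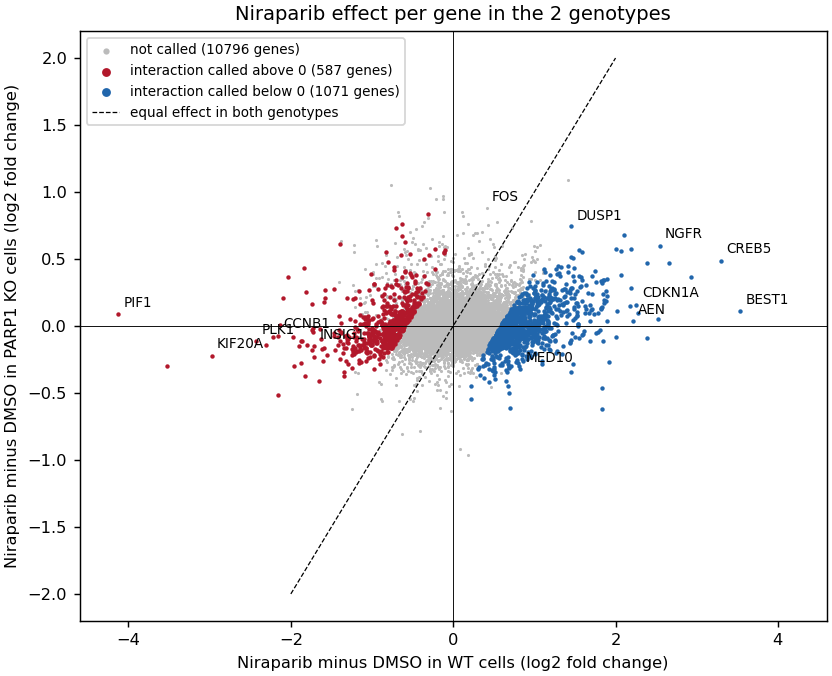
Niraparib effect (log2 fold change against DMSO) in WT on the horizontal axis and in PARP1 KO on the vertical axis, each point a gene of at least 2 CPM, coloured by whether the interaction was called above 0 (587 genes), below 0 (1071) or not (10796); the dashed line marks equal effects. The cloud is wide along the WT axis (SD 0.454) and narrow along the PARP1 KO axis (SD 0.141).

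Of 40 genes of mitosis tested, 28 fell with niraparib in WT by the same limits and none rose, where 1151 of all 23396 genes fell. For the interaction 26 were called above 0 and none below, against 3.50% of all genes above 0. By the adjusted P value alone 37 lay above and 2 below, where 23.8% of all genes passed. The median log2 effect was -0.88 in WT and -0.11 in PARP1 KO, and the median interaction was 0.75 (0.015 over all genes). Leaving out the 4 libraries that stand apart gave 28 above and none below. KIF20A, a kinesin of the central spindle (chr5:138178719-138187723), had 179, 198 and 193 CPM in WT with DMSO and 26.6, 22.3 and 24 with niraparib, against 175, 171 and 172 in PARP1 KO with DMSO and 149, 153 and 142 with niraparib. The 3 WT libraries with niraparib lay far below the other 9, and the PARP1 KO libraries with niraparib lay just below those with DMSO. The interaction of KIF20A was 2.76 (SE 0.079, adjusted P = 1.4e-17), from -2.98 in WT and -0.22 in PARP1 KO (adjusted P = 0.091, edgeR). PLK1, the kinase that drives entry into and passage through mitosis (chr16:23677656-23690367), had 207, 219 and 220 CPM in WT with DMSO, 43.5, 35.1 and 41.5 in WT with niraparib, 208, 204 and 205 in PARP1 KO with DMSO and 195, 194 and 181 in PARP1 KO with niraparib. Its WT libraries with niraparib were again the only low ones, with an interaction of 2.32 (SE 0.084, adjusted P = 3.2e-15, edgeR).

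Other genes of mitotic entry and exit were called above 0 as well. CCNB1, the cyclin that activates CDK1 at mitotic entry (chr5:69167135-69178245), had 355, 409 and 398 CPM in WT with DMSO, 88, 78.9 and 92.8 in WT with niraparib, 352, 359 and 392 in PARP1 KO with DMSO and 367, 363 and 319 in PARP1 KO with niraparib. The PARP1 KO groups overlapped and the WT groups did not, and the interaction was 2.09 (SE 0.10, adjusted P = 3.8e-10, edgeR). BUB1, a kinase of the spindle checkpoint, had an interaction of 1.75 (SE 0.086), AURKA, the centrosome kinase, 1.72 (SE 0.088), CCNA2, the S and G2 cyclin, 1.56 (SE 0.08), and PTTG1, the securin that holds back separase, 1.45 (SE 0.061). CDC20 and UBE2C, which serve the anaphase-promoting complex, had 1.34 (SE 0.071) and 1.43 (SE 0.084), and TOP2A, which untangles sister DNA, 1.27 (SE 0.08). CDK1 itself had 270, 345 and 336 CPM in WT with DMSO, 142, 135 and 155 in WT with niraparib, 310, 320 and 350 in PARP1 KO with DMSO and 320, 304 and 242 in PARP1 KO with niraparib. Its values scattered more, and its interaction was 0.96 (SE 0.18, adjusted P = 0.0033, edgeR). The counts do not separate fewer cells in mitosis from less RNA of these genes per cell, which holds for every gene group below.

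**Figure D2:**
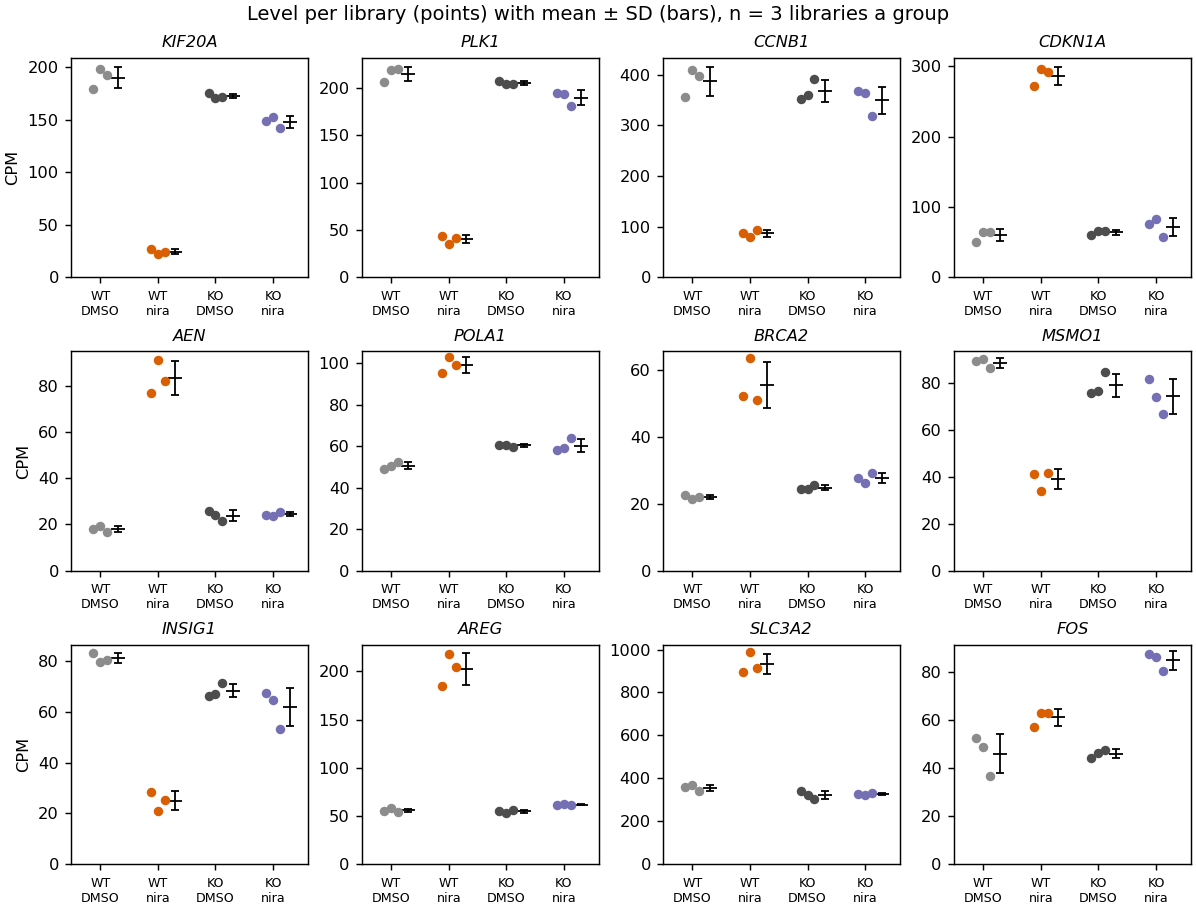
Level in CPM (linear axis from 0) of 12 genes in each of the 12 libraries, with points for libraries and a bar for the mean ± SD of 3. In KIF20A, PLK1, CCNB1, MSMO1 and INSIG1 the WT libraries with niraparib lie below the other groups, in CDKN1A, AEN, POLA1, BRCA2, AREG and SLC3A2 above them, and in FOS the PARP1 KO libraries with niraparib are the highest.

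The next list holds genes known as targets of p53, the transcription factor that halts the cell cycle or starts apoptosis after DNA damage. The activity of p53 itself was not measured here, and the list describes its members only. Of 26 tested, 17 were called below 0 and none above, against 5.68% of all genes below 0. By the adjusted P value alone 23 lay below and 1 above, where 23.8% of all genes passed. The median effect was 0.80 in WT and -0.03 in PARP1 KO, and the median interaction was -0.79. It was 15 below 0 without the 4 libraries that stand apart. CDKN1A, the cyclin-dependent kinase inhibitor p21 (chr6:36676460-36687339), had 50.6, 64.7 and 64.5 CPM in WT with DMSO, 272, 296 and 292 in WT with niraparib, 60, 65.9 and 66 in PARP1 KO with DMSO and 75.1, 82.7 and 56.9 in PARP1 KO with niraparib. The WT libraries with niraparib stood alone, the PARP1 KO groups overlapped, and the interaction was -2.10 (SE 0.20, adjusted P = 6.2e-05, edgeR). AEN, an exonuclease that acts in apoptosis (chr15:88621337-88632281), had 18, 19.1 and 16.8 CPM in WT with DMSO, 76.7, 91 and 82.1 in WT with niraparib, 25.7, 24.2 and 21.3 in PARP1 KO with DMSO and 24.1, 23.6 and 25.3 in PARP1 KO with niraparib. It was higher with DMSO in PARP1 KO than in WT (0.40, adjusted P = 0.0088), did not separate by treatment in PARP1 KO, and had an interaction of -2.17 (SE 0.11, adjusted P = 3e-13, edgeR).

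The member above 0 was POLH, a polymerase that copies past DNA lesions, at 0.46 (SE 0.08, adjusted P = 0.00012, edgeR), under the 1.5-fold limit. EDA2R, a receptor of the TNF family, had -2.11 (SE 0.54). GDF15, a secreted stress cytokine, had -1.68 (SE 0.12, adjusted P = 1.7e-09, edgeR), and BTG2, an antiproliferative factor, -1.47 (SE 0.08, adjusted P = 1.6e-12). RRM2B, the p53-induced subunit of ribonucleotide reductase, had 87.7, 95.1 and 90.4 CPM in WT with DMSO, 185, 199 and 203 in WT with niraparib, 91.6, 95.5 and 96.8 in PARP1 KO with DMSO and 94, 92.7 and 79.7 in PARP1 KO with niraparib. Its level rose in WT by 1.10 on the log2 scale, against -0.093 in PARP1 KO (adjusted P = 0.66, edgeR), where the groups overlapped, and the interaction was -1.20. TNFRSF10B, a death receptor for TRAIL, had -1.02 (SE 0.083), and PPM1D, the phosphatase that ends the response, -0.83 (SE 0.10). MDM2, the ubiquitin ligase of p53, had -0.58 (SE 0.073, adjusted P = 1.5e-06, edgeR), just under the 1.5-fold limit, with -0.64 to -0.49 over the other settings. In the BCL2 family 2 of 14 genes were called (14.3%, against 9.19% of all genes and 13.3% of those of at least 2 CPM), both below 0 and both pro-apoptotic p53 targets, PMAIP1 (-1.67, SE 0.17) and BBC3 (-0.96, SE 0.16), and the median interaction of the family was -0.18.

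The replication genes, which build and fire origins and copy DNA, had a median effect of 0.49 in WT and -0.078 in PARP1 KO. Of 37 tested, 16 were called below 0 and none above, against 5.68% of all genes below 0, and the median interaction was -0.54. By the adjusted P value alone 27 lay below and 1 above, where 23.8% of all genes passed. With those 4 libraries left out 13 were called below 0. Their median difference between the genotypes with DMSO was 0.21, higher in PARP1 KO, with no member called. POLA1, the catalytic subunit of DNA polymerase alpha (chrX:24693919-24996986), had 48.9, 50.7 and 52.4 CPM in WT with DMSO, 95.2, 103 and 99.3 in WT with niraparib, 60.7, 60.8 and 59.7 in PARP1 KO with DMSO and 58.2, 59.1 and 63.8 in PARP1 KO with niraparib. PARP1 KO started above WT with DMSO (0.25, adjusted P = 0.014), the PARP1 KO groups overlapped, and the interaction was -0.97 (SE 0.073, adjusted P = 5.5e-10, edgeR). MCM10, an initiation factor, had -1.06 (SE 0.10), and CDC6, which loads the MCM helicase, -0.75 (SE 0.084). RRM2, the S phase subunit of ribonucleotide reductase, had 127, 145 and 141 CPM in WT with DMSO, 185, 198 and 198 in WT with niraparib, 149, 155 and 156 in PARP1 KO with DMSO and 127, 133 and 128 in PARP1 KO with niraparib. It moved up in WT and down in PARP1 KO without overlap in either, with an interaction of -0.74 (SE 0.071, adjusted P = 3.2e-08, edgeR).

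Genes of G1 and the E2F network were split. Of 23 tested, 9 were called below 0 and 3 above (5.68% and 3.50% of all genes), with a median interaction of -0.43. CCNE2, the cyclin of S phase entry, had 27.6, 27.6 and 29.1 CPM in WT with DMSO, 49, 53.5 and 55.6 in WT with niraparib, 36.1, 33.3 and 37.2 in PARP1 KO with DMSO and 29, 30.8 and 30 in PARP1 KO with niraparib. It moved up in WT and, without overlap, down in PARP1 KO (-0.25, adjusted P = 0.1), and the interaction was -1.16 (SE 0.088, adjusted P = 7.1e-10, edgeR). The transcription factors E2F1 (-0.82, SE 0.08), E2F2 (-1.14, SE 0.12) and E2F7 (-0.96, SE 0.11) were called on the same side. CCND1, the G1 cyclin that estrogen induces, had 396, 375 and 380 CPM in WT with DMSO, 191, 168 and 201 in WT with niraparib, 445, 420 and 405 in PARP1 KO with DMSO and 385, 396 and 422 in PARP1 KO with niraparib. Its WT level fell by 1.04 on the log2 scale and that in PARP1 KO overlapped between treatments, which gave an interaction of 0.96 (SE 0.08, adjusted P = 3.3e-09, edgeR). CDKN2C, the CDK4/6 inhibitor p18, was called on the side of CCND1 (0.91, SE 0.091).

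**Figure D3:**
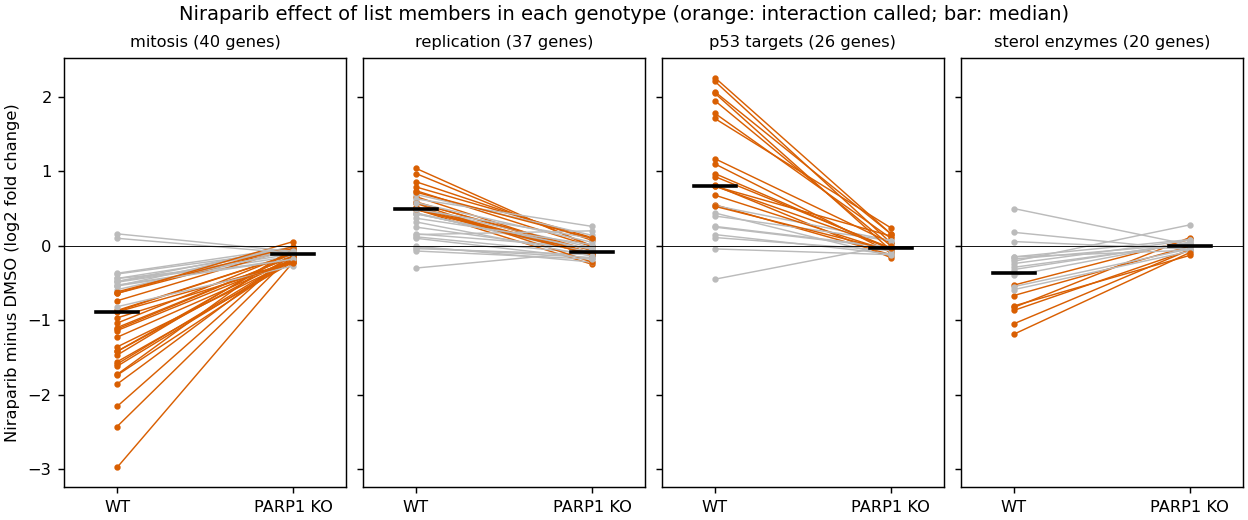
Niraparib effect (log2 fold change against DMSO) in WT and in PARP1 KO for every tested member of 4 lists (mitosis, replication, p53 targets, sterol enzymes), a line joining the values of a gene. The WT medians are -0.88, 0.49, 0.80 and -0.36, and the PARP1 KO medians -0.11, -0.078, -0.03 and 0.003.

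Homologous recombination and the Fanconi anemia pathway repair the double-strand breaks and crosslinks met by replication forks, and loss of BRCA1 or BRCA2 is known to make cells sensitive to PARP inhibitors. Of 32 genes tested, 6 were called below 0 and none above (18.8%). Of all genes 5.68% were called below 0, and of those of at least 2 CPM 13.3% in either direction. The median interaction was -0.28 and the median WT effect 0.30. BRCA2 (chr13:32315474-32400266) had 22.5, 21.5 and 22.1 CPM in WT with DMSO, 52.1, 63.4 and 51.1 in WT with niraparib, 24.3, 24.4 and 25.6 in PARP1 KO with DMSO and 27.6, 26.2 and 29.3 in PARP1 KO with niraparib. The PARP1 KO libraries with niraparib lay just above those with DMSO (0.16, adjusted P = 0.49), the WT effect was 1.34, and the interaction was -1.17 (SE 0.10, adjusted P = 7.9e-09, edgeR). EXO1, the nuclease that resects breaks, had -1.22 (SE 0.11), and BRIP1, a helicase partner of BRCA1, -0.94 (SE 0.10). BRCA1 had -0.55 (SE 0.064, adjusted P = 5.2e-07, edgeR), under the 1.5-fold limit, and -0.61 with library size as the only scaling. Among 22 genes of checkpoint signaling and end joining, 1 was called above 0 and 3 below (18.2%, against 9.19% of all genes), with a median interaction of 0.15. CLSPN, the claspin adaptor through which ATR activates CHK1, was the largest of them at -1.0 (SE 0.11), beside TIPIN, a partner of it at the fork (-0.79, SE 0.17), and RNF8, a ubiquitin ligase of damaged chromatin (-0.65). CHEK2, the checkpoint kinase, had 0.63 and 0.57 with library size as the only scaling. RNF8 was under the limit without PARP1 KO niraparib replicate 3 (-0.55), PARP1 KO DMSO replicate 1 (-0.58), WT DMSO replicate 1 (-0.52) or the 4 libraries that stand apart (-0.50). Among 22 genes of the PARP family and single-strand break repair, 2 were called below 0 and none above, a share of 9.09% against 9.19% of all genes, and the median was -0.19. These were APTX at -0.63 and PARP3 at -0.59. With library size as the only scaling 5 were called below 0, and with RLE factors 1. Both lay near the 1.5-fold limit. Without the 4 libraries that stand apart APTX had -0.54 and PARP3 -0.36, and PARP3 was under the limit in 12 of 21 other settings. PARP2, a related enzyme of DNA repair, had an interaction of -0.026 (SE 0.078, adjusted P = 0.86, edgeR), with 44.9 to 51.5 CPM in all 12 libraries.

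Cholesterol is made from acetyl-CoA through isoprenoid intermediates, and SREBP2 and SREBP1 switch on the enzymes of the sterol and fatty acid pathways when membrane sterol is low. Of the 20 sterol enzymes tested, 7 were called above 0 and none below (35%, against 3.50% of all genes above 0), with medians of -0.36 in WT, 0.003 in PARP1 KO and 0.47 for the interaction. By the adjusted P value alone 14 lay above 0 and 2 below, where 23.8% of all genes passed. When the 4 libraries that stand apart were left out, 5 were called. MSMO1, the C4 methyl sterol oxidase, had 89.3, 90.1 and 86.3 CPM in WT with DMSO, 41.2, 33.9 and 41.8 in WT with niraparib, 75.8, 76.5 and 84.7 in PARP1 KO with DMSO and 81.6, 74.2 and 66.9 in PARP1 KO with niraparib. Only its WT groups separated, with an interaction of 1.10 (SE 0.11, adjusted P = 1.8e-06, edgeR). HMGCS1, an early enzyme of the pathway, had 0.81 (SE 0.071), and SQLE, squalene epoxidase, 0.94 (SE 0.072).

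Of 15 genes of SREBP control and LDL uptake 2 were called, both above 0, a share of 13.3% against 9.19% of all genes and 13.3% of those of at least 2 CPM, and the median interaction was 0.22. INSIG1, which retains SREBP in the endoplasmic reticulum and is itself an SREBP target (chr7:155297776-155310235), had 83.3, 79.6 and 80.4 CPM in WT with DMSO, 28.4, 20.9 and 25.4 in WT with niraparib, 66.4, 67.2 and 71.3 in PARP1 KO with DMSO and 67.3, 64.8 and 53.2 in PARP1 KO with niraparib. Its WT groups were far apart and its PARP1 KO groups overlapped, and the interaction was 1.56 (SE 0.15, adjusted P = 5.5e-06, edgeR). Of the SREBP genes, SREBF2 had 0.36 (SE 0.07, adjusted P = 0.00034) and SREBF1 0.10 (SE 0.093, adjusted P = 0.49, edgeR). In fatty acid synthesis 4 of 18 genes were called above 0 and none below (22.2%, against 3.50% of all genes above 0), with a median of 0.17. SCD, the stearoyl-CoA desaturase (chr10:100347233-100364826), had 1446, 1427 and 1413 CPM in WT with DMSO, 779, 687 and 747 in WT with niraparib, 1437, 1420 and 1451 in PARP1 KO with DMSO and 1480, 1418 and 1410 in PARP1 KO with niraparib. The 9 libraries other than WT with niraparib lay within 1410 to 1480 CPM, and the interaction was 0.95 (SE 0.067, adjusted P = 1.5e-10, edgeR). FASN, fatty acid synthase, had 0.93 (SE 0.10), and ACACA, acetyl-CoA carboxylase, 0.69 (SE 0.065). Of 12 genes of LXR, the oxysterol receptor, and cholesterol efflux, 1 was called (8.33%, against 9.19% of all genes). This was MYLIP, a ubiquitin ligase and LXR target, at -1.04 (SE 0.11, adjusted P = 1.2e-07, edgeR), and the list median of 0.013 changed sign between settings.

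The start-site windows of 4 of these genes are shown as those of members with large interactions in the mitosis, replication, SREBP and sterol lists, with KIF20A and POLA1 chosen after their values were seen as the members with the smallest adjusted P value of mitosis and replication. Each runs from 250 bases before to 50 bases after the RefSeq start in GRCh38.p14, on the plus strand and 5′ to 3′, and capitals mark matches on either strand to CCAAT (the CCAAT box), CACGTG (the E-box), TTTNGCGC (the E2F site) or TCACNCCAC (the core of the sterol element).
KIF20A, chr5:138178862-138179161: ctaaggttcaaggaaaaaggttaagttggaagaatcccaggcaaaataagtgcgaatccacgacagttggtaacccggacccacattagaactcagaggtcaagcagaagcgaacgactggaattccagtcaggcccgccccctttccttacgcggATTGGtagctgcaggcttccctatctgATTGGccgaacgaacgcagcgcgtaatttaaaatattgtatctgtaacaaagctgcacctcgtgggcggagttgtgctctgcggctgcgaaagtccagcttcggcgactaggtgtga
POLA1, chrX:24693668-24693967: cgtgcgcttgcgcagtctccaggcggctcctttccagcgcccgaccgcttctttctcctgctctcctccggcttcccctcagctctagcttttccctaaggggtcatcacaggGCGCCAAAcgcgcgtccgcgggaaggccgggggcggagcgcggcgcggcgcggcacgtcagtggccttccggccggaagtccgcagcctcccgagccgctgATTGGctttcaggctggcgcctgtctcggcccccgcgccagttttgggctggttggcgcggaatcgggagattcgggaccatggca
INSIG1, chr7:155297628-155297927: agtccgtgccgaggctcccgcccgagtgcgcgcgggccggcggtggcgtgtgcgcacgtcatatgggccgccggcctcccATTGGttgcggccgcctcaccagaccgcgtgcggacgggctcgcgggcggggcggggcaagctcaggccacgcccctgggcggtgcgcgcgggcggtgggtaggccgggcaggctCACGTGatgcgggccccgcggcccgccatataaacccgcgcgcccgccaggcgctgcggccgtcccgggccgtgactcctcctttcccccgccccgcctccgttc
MSMO1, chr4:165327419-165327718: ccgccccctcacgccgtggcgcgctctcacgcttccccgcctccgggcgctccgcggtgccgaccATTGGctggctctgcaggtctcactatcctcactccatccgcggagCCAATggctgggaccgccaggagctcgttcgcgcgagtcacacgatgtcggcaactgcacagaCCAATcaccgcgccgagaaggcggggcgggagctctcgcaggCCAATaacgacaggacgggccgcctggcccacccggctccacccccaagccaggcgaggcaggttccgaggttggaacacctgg

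The RefSeq start of KIF20A lies 393 bases from the start of the gene in the count files, inside the interval given above, and those of the other 3 lie 1 to 102 bases from theirs. The KIF20A window held 2 CCAAT boxes, that of POLA1 1 CCAAT box and 1 E2F site, that of INSIG1 1 CCAAT box and 1 E-box, and that of MSMO1 4 CCAAT boxes. Of all 35116 RefSeq windows of this length, 34.6% held a CCAAT box, 7.26% an E-box, 1.79% the E2F letters and 1.13% the sterol element core. Of the 40 mitosis genes 33 had a window, of which 24 (72.7%) held a CCAAT box and 2 (6.06%) the E2F letters. Of the 37 replication genes 33 had a window, of which 17 (51.5%) held a CCAAT box and 13 (39.4%) the E2F letters. A CCAAT box was in 6 of 14 windows of the SREBP list (42.9%) and 9 of 17 of the fatty acid list (52.9%), and the sterol core in 1 window of each. For the sterol enzymes 15 of 20 had a window, of which 12 held a CCAAT box and none the sterol core, and no share is read since only 75% of them had a window. These matches are a description of letters and were not tested against the interaction.

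Of 26 genes of the estrogen receptor and its targets tested, 5 were called above 0 and 2 below (3.50% and 5.68% of all genes), with a median interaction of 0.26 and a median WT effect of -0.40. ESR1, the receptor, had 171, 162 and 170 CPM in WT with DMSO, 117, 116 and 114 in WT with niraparib, 177, 173 and 173 in PARP1 KO with DMSO and 160, 164 and 166 in PARP1 KO with niraparib, an interaction of 0.44 (SE 0.06, adjusted P = 5e-06, edgeR) under the 1.5-fold limit. STC2, a secreted glycoprotein, had 0.98 (SE 0.086), and AGR2, a disulfide isomerase of luminal cells, 0.75 (SE 0.10). PGR, the progesterone receptor, had 0.70 (SE 0.073) and 0.57 without the 4 libraries that stand apart, under the limit. AREG, an EGF receptor ligand that estrogen also induces (chr4:74445136-74455005), went the other way, with 55.2, 57.7 and 54.3 CPM in WT with DMSO, 185, 218 and 205 in WT with niraparib, 54.7, 52.8 and 56.5 in PARP1 KO with DMSO and 61.7, 62.3 and 61.2 in PARP1 KO with niraparib. The PARP1 KO libraries with niraparib lay narrowly above those with DMSO (0.18, adjusted P = 0.23), and the interaction was -1.69 (SE 0.078, adjusted P = 1.1e-13, edgeR).

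The EGF family was split. Of 12 genes tested 6 were called (50%, against 9.19% of all genes), the ligands AREG, EREG (-2.53, SE 0.38) and HBEGF (-1.68, SE 0.21) below 0, and the ligand EGF (0.88, SE 0.089) with the receptors ERBB3 (0.79, SE 0.072) and ERBB4 (0.78, SE 0.09) above 0. The median of the list was -0.31. EREG was low, at 0.600, 0.640 and 0.624 CPM in WT with DMSO, 4.68, 7.11 and 6.43 in WT with niraparib, 0.548, 0.359 and 0.301 in PARP1 KO with DMSO and 0.632, 0.683 and 0.720 in PARP1 KO with niraparib. Among 19 luminal transcription factors 2 were called above 0 and 3 below (26.3%), and 0 and 4 without the 4 libraries that stand apart, with a median of -0.0037 whose sign changed between settings. KLF4, a factor of differentiating epithelium, had -1.09 (SE 0.15), its relative KLF5 -1.0 (SE 0.23) and TBX2, a T-box repressor, -0.74 (SE 0.15). GATA3 and TFAP2A, which specify luminal cells, had 0.69 (SE 0.071) and 0.65 (SE 0.069), and 0.57 and 0.58 without the 4 libraries. Of 14 keratins 2 were called below 0 (14.3%, where 13.3% of all genes of at least 2 CPM were called), KRT80 at -0.98 (SE 0.12) and KRT17, a basal keratin, which was near 0 outside WT with niraparib (2.10, 3.04 and 2.64 CPM there and at most 0.219 CPM in the other 9 libraries). The keratin median of 0.0031 also changed sign between settings.

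Of 21 genes of ATF4, the factor of the amino acid and integrated stress response, 7 were called below 0 and 1 above, with a median of -0.40, where 5.68% of all genes were called below 0, the share that the next 3 lists are read against as well. SLC3A2, the heavy chain of amino acid exchangers (chr11:62856102-62888875), had 360, 368 and 339 CPM in WT with DMSO, 897, 988 and 914 in WT with niraparib, 339, 323 and 303 in PARP1 KO with DMSO and 328, 323 and 329 in PARP1 KO with niraparib. The WT libraries with niraparib were the only high ones, and the interaction was -1.37 (SE 0.071, adjusted P = 7.3e-13, edgeR). TRIB3, a pseudokinase that restrains ATF4, had -1.16 (SE 0.067), DDIT3, the factor CHOP, -1.15 (SE 0.094), and CEBPB, its partner, -1.11 (SE 0.088). Of 19 genes of NF-kB and cytokines 7 were called below 0 and none above, with a median of -0.67. RELB, an NF-kB subunit, had -1.90 (SE 0.18), and IL32, a cytokine of low level (at most 0.632 CPM outside WT with niraparib), -2.46 (SE 0.41). Without the 4 libraries that stand apart it was 6 of 18. Of 25 AP-1 and immediate early genes 6 were called below 0 and none above (median -0.22), and 4 with RLE factors. JUND (-0.59), an AP-1 subunit, and MAFF (-0.60), a small MAF factor, each lay at the 1.5-fold limit and lost the call in 10 of 21 other settings. ATF3, a stress-induced factor, had -1.50 (SE 0.13) with 0.34 in PARP1 KO (adjusted P = 0.2, edgeR), and KLF10, a factor that TGF-beta induces, -0.70 (SE 0.08). Of 18 YAP targets 6 were called below 0 and none above (median -0.11), among them GADD45A, a damage-induced growth inhibitor, at -1.34 (SE 0.15) and ANKRD1, a cardiac and stress repeat protein, at -2.66 (SE 0.43). The YAP list was not one-sided, with 8 members above 0 and 10 below whether called or not. By the adjusted P value alone 3 lay above and 8 below, where 23.8% of all genes passed.

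Of 39 interferon-stimulated genes 3 were called above 0 and 6 below (3.50% and 5.68% of all genes), with a median of -0.30. ISG20, an RNA exonuclease, had -1.70 (SE 0.18), and IFIT1, which binds viral RNA, 1.12 (SE 0.21). Below 0, ISG15, a ubiquitin-like modifier (-0.90, SE 0.32), and SAMD9L, an antiviral factor (-0.80, SE 0.28), each lost the call in 10 of 21 other settings, with ranges of -1.05 to -0.49 and -1.02 to -0.63, ISG15 among others without the 4 libraries that stand apart (-0.49). The other two above 0 were STAT2, a transcription factor of the interferon response (0.63, and 0.57 without WT DMSO replicate 1 or 0.58 without WT niraparib replicate 3), and MX2, an antiviral GTPase. MX2 had 0.88 and was not called without PARP1 KO niraparib replicate 2 (0.72), PARP1 KO DMSO replicate 1 (0.84), WT niraparib replicate 2 (0.75), WT DMSO replicate 2 (0.84) or the 4 libraries that stand apart (0.78). In the MHC class I list 2 of 14 were called (14.3%, where 13.3% of all genes of at least 2 CPM were called), 1 above 0, the peptide loader TAPBP (0.62, with 0.57 without WT niraparib replicate 2 and 0.58 without the 4 libraries), and 1 below, the transactivator NLRC5 (-1.10, SE 0.23), and the median of -0.10 changed sign between settings. ERK feedback genes gave 3 above and 1 below of 14 (median 0.13), the phosphatases DUSP4 (0.67) and DUSP6 (0.66) with PHLDA1 (0.66) above and the phosphatase DUSP5 (-0.77, SE 0.11) below. None of the 3 above 0 was called without the 4 libraries that stand apart (0.53, 0.48 and 0.41 in that order), nor DUSP4 without WT niraparib replicate 2 (0.58) or DUSP6 without WT DMSO replicate 1 (0.54).

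The remaining lists are read against the 9.19% of all genes called and the 13.3% of those of at least 2 CPM. Heat shock, the unfolded protein response, NRF2, glycolysis and insulin signaling held 1 or 2 called members each, shares of 15.4%, 11.1%, 11.1%, 7.14% and 5% in that order. Heat shock gave 2 above 0 and none below of 13 (median 0.18), the chaperones HSPA8 (0.91, SE 0.10) and HSPA1A (0.72, SE 0.083). The unfolded protein response gave 1 above and 1 below of 18 (median 0.35). By the adjusted P value alone it gave 11 above and 1 below, where 23.8% of all genes passed. With RLE factors or without the 4 libraries 3 were called above 0, and none with library size as the only scaling. The chaperones PDIA4 and HSP90B1 had 0.57 each, just under the limit, and gained a call in 9 of 21 other settings. The called genes were MANF, a secreted survival factor of the endoplasmic reticulum (0.61), and the sensor ERN1 (-0.78, SE 0.085), and MANF was not called without PARP1 KO niraparib replicate 1 (0.58), PARP1 KO DMSO replicate 2 (0.58) or WT niraparib replicate 2 (0.57). The oxidative stress factor NRF2 and its targets gave 1 above and 1 below of 18 (median 0.074), the peroxiredoxin PRDX1 (0.63, and 0.55 without WT niraparib replicate 2) and heme oxygenase HMOX1 (-0.81, SE 0.17). The aryl hydrocarbon receptor list gave 1 above and 1 below of 8 (median -0.27), its target CYP1B1 (0.77, SE 0.11) and AHR itself (-1.15, SE 0.16). Of 32 genes of lysosome and autophagy 7 were called below 0 and 1 above, WIPI1, which acts in autophagosome formation (0.72, SE 0.13), with a median of -0.10. Without the 4 libraries 5 were called below 0, and the autophagy genes SQSTM1 (-0.64) and MAP1LC3B (-0.69) were then under the limit (-0.54 and -0.56), SQSTM1 also without PARP1 KO niraparib replicate 3 (-0.58). GPNMB, a lysosomal glycoprotein (-1.17, SE 0.36), lost its call in 13 of 21 other settings (-1.33 to -0.76). Glycolysis and hypoxia gave 1 above and 1 below of 28 (median 0.12), hexokinase HK1 (0.79, SE 0.067) and VEGFA, the vascular growth factor (-0.77, SE 0.22), whose call was lost in 11 of 21 other settings (-0.99 to -0.65). Insulin and PI3K signaling gave 1 below and none above of 20 (median 0.083), TXNIP, the glucose-responsive thioredoxin inhibitor (-1.14, SE 0.18), and without the 4 libraries 3 below and 1 above. No gene was called among 34 integrins, laminins and matrix genes (median 0.13). Of these 13 had an adjusted P value under 0.05, all above 0, where 23.8% of all genes passed (edgeR). With RLE factors or without the 4 libraries 1 was called above 0, and ITGB6, an integrin subunit (0.61), gained a call in 8 of 21 other settings. None was called either among 8 drug efflux and carboxylesterase genes (median -0.19, 1 under 0.05) and 13 mitochondrially encoded genes (median 0.15, none under 0.05, edgeR).

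**Figure D4:**
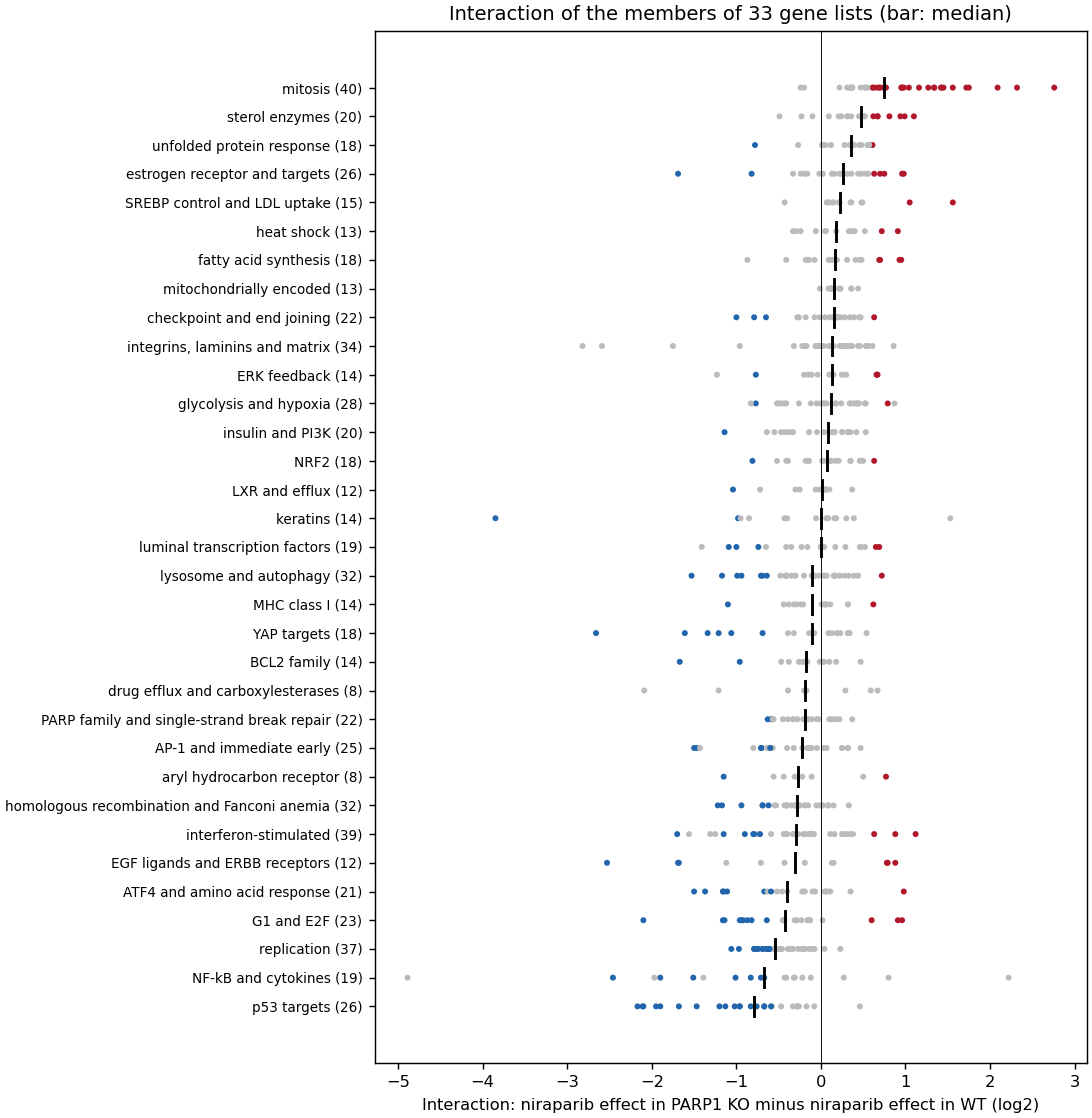
Interaction (log2) of every tested member of 33 gene lists, each point a gene and each bar the list median, with called genes in colour and others in grey. The mitosis list has the highest median (0.75) and the p53 target list the lowest (-0.79).

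Over the 33 lists together, 172 of 671 distinct genes tested were called (25.6%), against 9.19% of all genes and 13.3% of the genes of at least 2 CPM. Leaving aside the 4 lists whose median changed sign between settings, those that moved by over 1.5 times without the 4 libraries that stand apart were YAP targets (-0.26), AP-1 (-0.40), fatty acid synthesis (0.28) and insulin signaling (0.15), which moved away from 0. Toward 0 moved the medians of G1 and E2F (-0.27), the EGF family (-0.18), interferon (-0.18), the aryl hydrocarbon receptor (-0.10), ERK feedback (0.029), the mitochondrial genes (0.028) and the lysosome (-0.013). With library size as the only scaling the medians of checkpoint genes (0.085), ERK feedback (0.067), integrins (0.072), NRF2 (0.015), glycolysis (0.06), insulin signaling (0.023), the mitochondrial genes (0.087) and fatty acid synthesis (0.11) moved toward 0 by as much, and those of YAP targets (-0.17) and the lysosome (-0.16) away from it. Of these calls 45 were lost in at least 1 of 21 other settings, and none changed sign.

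Among protein coding genes of at least 2 CPM, the interactions above 0 of largest size were led by PIF1, a DNA helicase active at telomeres and G-quadruplexes (chr15:64815632-64825668). It had 28.4, 18.6 and 18.3 CPM in WT with DMSO, 0.930, 1.73 and 0.897 in WT with niraparib, 17.9, 16.7 and 10.6 in PARP1 KO with DMSO and 14.8, 13.2 and 19.8 in PARP1 KO with niraparib. Its WT libraries with niraparib were the 3 lowest by far, WT DMSO replicate 1 was the highest, and the interaction was 4.22 (SE 0.47, adjusted P = 0.0002, edgeR). TNFAIP8L1 had 20.1, 22.6 and 20.6 CPM in WT with DMSO, 2.16, 1.15 and 2.34 in WT with niraparib, 20.3, 17.3 and 19 in PARP1 KO with DMSO and 16.8, 15.9 and 13.6 in PARP1 KO with niraparib, an interaction of 3.23 (SE 0.23, adjusted P = 2.9e-07). After KIF20A and PLK1 came PLA2G3, a secreted phospholipase (2.31, SE 0.32), SLC4A8, a bicarbonate transporter (2.16, SE 0.14), the histone gene H2BC7 (2.14, SE 0.24), FAM72D (2.14, SE 0.24) and, after CCNB1, LMOD1, an actin nucleator (2.07, SE 0.19), PLIN4, a lipid droplet coat protein (2.0, SE 0.37), and PSRC1, a spindle protein (1.89, SE 0.10). FAM72D has near-identical copies and its count is uncertain. SLC4A8 (-0.58, adjusted P = 0.0018) and PSRC1 (-0.37, adjusted P = 0.0067, edgeR) were already lower in PARP1 KO than in WT with DMSO.

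Below 0, BEST1, a chloride channel (chr11:61950063-61965515), had 5.37, 4.56 and 3.52 CPM in WT with DMSO, 38.1, 77 and 39.1 in WT with niraparib, 4.61, 4.02 and 3.11 in PARP1 KO with DMSO and 4.18, 2.98 and 5.35 in PARP1 KO with niraparib. Its highest value came from WT niraparib replicate 2, the groups in PARP1 KO overlapped, and the interaction was -3.43 (SE 0.54, adjusted P = 0.0017, edgeR). CREB5, a CRE-binding transcription factor (chr7:28299321-28825894), had 2.17, 3.53 and 2.5 CPM in WT with DMSO, 23.3, 31.9 and 27.3 in WT with niraparib, 3.76, 4.15 and 3.69 in PARP1 KO with DMSO and 5.38, 6.08 and 4.80 in PARP1 KO with niraparib. The PARP1 KO groups did not overlap either (0.49, adjusted P = 0.28), and the interaction was -2.82 (SE 0.22, adjusted P = 2.2e-08, edgeR). The next were INHBE, an activin subunit that ATF4 induces (-2.57, SE 0.24), RAB39B, a vesicle GTPase (-2.47, SE 0.29), RAB3IL1, a Rab exchange factor (-2.47, SE 0.22), KMO, an enzyme of tryptophan breakdown (-2.45, SE 0.36), ZNF679, a zinc finger protein (-2.29, SE 0.28), ARAP3, a GTPase-activating protein (-2.19, SE 0.27), ADORA1, an adenosine receptor (-2.18, SE 0.41), and CFAP251, a ciliary protein (-2.18, SE 0.23), followed by AEN and CDKN1A. None of the 24 genes named by size lost its call in the 21 other settings.

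The 4 genes called with niraparib in PARP1 KO were FOS, DUSP1, MORN3 and NGFR. FOS, the AP-1 subunit of the immediate early response, had 52.6, 48.7 and 36.8 CPM in WT with DMSO, 57.1, 63.1 and 63.1 in WT with niraparib, 44.1, 46.4 and 47.7 in PARP1 KO with DMSO and 87.7, 86.5 and 80.4 in PARP1 KO with niraparib. It was highest in PARP1 KO with niraparib, by 0.88 on the log2 scale over DMSO (adjusted P = 0.0081) against 0.41 in WT (adjusted P = 0.008), and the interaction of 0.47 (SE 0.15, adjusted P = 0.037, edgeR) stayed under the 1.5-fold limit except without WT DMSO replicate 3 (0.61). DUSP1, a phosphatase of MAP kinases, had 57, 62.7 and 48.3 CPM in WT with DMSO, 145, 171 and 143 in WT with niraparib, 45.8, 53.1 and 48.6 in PARP1 KO with DMSO and 77.8, 87.5 and 81.3 in PARP1 KO with niraparib. It rose in both genotypes, by 1.45 in WT and 0.74 in PARP1 KO, with an interaction of -0.71 (SE 0.14, adjusted P = 0.0029, edgeR), and of -0.61 and no longer called without the 4 libraries that stand apart. NGFR, the p75 neurotrophin receptor, had 5.1, 5.2 and 5.24 CPM in WT with DMSO, 30.3, 31.8 and 28.5 in WT with niraparib, 5.04, 4.80 and 4.54 in PARP1 KO with DMSO and 6.96, 7.63 and 7.13 in PARP1 KO with niraparib, an interaction of -1.95 (SE 0.13, adjusted P = 4.9e-11). MORN3 rose by 1.07 in WT and 0.61 in PARP1 KO, and its interaction of -0.47 (SE 0.15, adjusted P = 0.026, edgeR) stayed under the limit.

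The number of calls in PARP1 KO changed with the library left out. The number of genes called was 0 without PARP1 KO DMSO replicate 3, 1 without PARP1 KO niraparib replicate 1, PARP1 KO niraparib replicate 2 or PARP1 KO DMSO replicate 1, 2 without PARP1 KO DMSO replicate 2, and 8 without WT DMSO replicate 1. The sizes moved little, between 0.84 and 0.95 for FOS, 0.69 and 0.80 for DUSP1, 0.56 and 0.66 for MORN3, and 0.56 and 0.63 for NGFR over the 21 other settings.

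In 3 called genes the effects in the genotypes had opposite signs and both had an adjusted P value under 0.05. These were RRM2, MED10, a subunit of the Mediator complex, and SNHG32, a small nucleolar RNA host gene. MED10 had 24.3, 27.3 and 24.4 CPM in WT with DMSO, 43.6, 44.3 and 46.4 in WT with niraparib, 28.3, 26.5 and 27.3 in PARP1 KO with DMSO and 21.4, 23.1 and 21.2 in PARP1 KO with niraparib. It rose by 0.82 in WT and fell by 0.32 in PARP1 KO (adjusted P = 0.038), with an interaction of -1.14 (SE 0.091, adjusted P = 1.5e-09, edgeR). SNHG32 had 40.2, 42.9 and 39.1 CPM in WT with DMSO, 68.4, 68.3 and 63.4 in WT with niraparib, 39.6, 42.6 and 40.4 in PARP1 KO with DMSO and 32.4, 32.3 and 34.9 in PARP1 KO with niraparib. It rose by 0.71 in WT and fell by 0.30 in PARP1 KO (adjusted P = 0.036, edgeR), and 29.1% of its exon length is shared with other genes. For RRM2 the effects were 0.49 and -0.25 (adjusted P = 0.038 in PARP1 KO, edgeR). The PARP1 KO effect was negative in each of 21 other settings for all 3 genes, but its adjusted P value stayed under 0.05 in 9 of them for MED10 and RRM2 and in 10 for SNHG32, and was up to 0.24, 0.20 and 0.21 in that order. It was lost, among others, when any of the 6 PARP1 KO libraries was left out.

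Olaparib, a second PARP inhibitor, had been given to both lines at the same dose and time. The niraparib and olaparib interactions share the 6 DMSO libraries, and the difference between them does not use these. That difference, fitted over 18 libraries and 24675 genes, was called in 800 genes (3.24%), 294 above 0 and 506 below, and 212 and 692 with library size as the only scaling. It was not refitted without the libraries that stand apart, and the olaparib libraries were not compared with their group mates. Olaparib replicate 3 had 5.68% of its counts on mitochondrial genes in PARP1 KO and 5.57% in WT. By list, the drug difference was called above 0 in 22 of 40 mitosis genes, 4 of 20 sterol enzymes and 3 of 15 genes of SREBP control, with none below in any of these. It was called below 0 in 9 of 26 p53 targets and 7 of 21 ATF4 genes, with none above. Of 37 replication genes 1 was called, also below 0, near the 3.24% of all genes called. Median interactions with niraparib and olaparib were 0.77 and 0.19 for mitosis, -0.78 and -0.29 for p53 targets, -0.52 and -0.33 for replication, 0.49 and 0.094 for sterol enzymes, and -0.39 and -0.15 for ATF4 genes in this fit.

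KIF20A had an interaction of 2.77 with niraparib and 0.61 with olaparib, and the difference was 2.16 (SE 0.084, adjusted P = 5.6e-20, edgeR). PLK1 had 2.33 and 0.47, CCNB1 2.11 and 0.49, PIF1 4.23 and 1.38, and TNFAIP8L1 3.25 and 0.54, with differences of 1.87, 1.62, 2.85 and 2.70. The largest in the other direction were BEST1 (niraparib -3.41, olaparib -0.10), CREB5 (-2.80 and -0.20), CFAP251 (-2.16 and 0.00), RAB39B (-2.46 and -0.32) and KMO (-2.44 and -0.58), with differences of -3.31, -2.60, -2.16, -2.14 and -1.85. LINC02475, a long noncoding RNA, had 1.63 and 0.093, and PLA2G4C, a cytosolic phospholipase, -1.55 and 0.19. For INSIG1 the interactions were 1.58 and 0.27 (adjusted P = 0.55 with olaparib), a difference of 1.31 (SE 0.20, adjusted P = 0.00063, edgeR). SCD had 0.97 and 0.25, and the difference of 0.72 (SE 0.068, adjusted P = 1e-09, edgeR) was called. In some genes of S phase no such difference was detected. CDT1, which licenses origins, had -0.67 with niraparib and -0.69 with olaparib (difference 0.014, SE 0.08, adjusted P = 0.96), and CDC6 -0.74 and -0.59 (difference -0.15, SE 0.082, adjusted P = 0.3, edgeR). NGFR had -1.93 and -1.15, AREG -1.67 and -0.75, and BRCA2 -1.16 and -0.36, with differences of -0.78, -0.93 and -0.80. None of the 12 genes named by the size of the difference lost its call in the other settings.

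**Figure D5:**
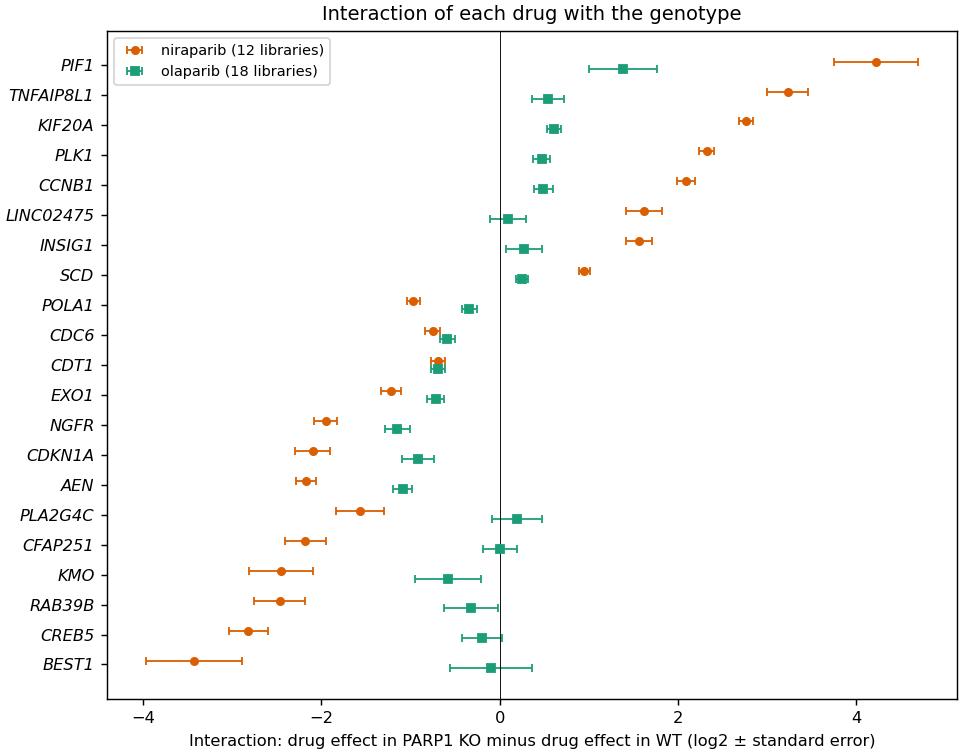
Interaction (log2 ± SE) of 21 genes with niraparib (12-library fit) and with olaparib (18-library fit). The niraparib points lie farther from 0 than the olaparib points for KIF20A, PLK1, BEST1 and CREB5, and next to them for CDT1 and CDC6.

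Of the genes called above 0, 63.5% were protein coding and 27.7% long noncoding RNA genes, and of those below 0, 89.3% and 7.3%, against 64.1% and 20.3% of all genes tested. Among genes of at least 2 CPM the protein coding share was 78.2% above 0 and 93.6% below 0, against 92.1% of all, so that there the side below 0 lay near all genes. Among protein coding genes the median gene span was 29.3 kb above 0 and 31.6 kb below 0 (32 kb for all tested). Median levels were 7.66 CPM above 0 and 10.4 CPM below 0 (3.33 CPM for all tested). With DMSO the median difference of PARP1 KO from WT was -0.20 on the log2 scale for genes called above 0 and 0.13 for those called below 0, and these values share the DMSO libraries with the interaction. These shares were not tested.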

How the data were processed

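The series holds 18 libraries of poly(A) RNA from T47D cells, WT or PARP1 KO by their labels, taken after 48 h with DMSO, niraparib or olaparib (10 μmol/L), of which the 12 with DMSO or niraparib were compared. Values are read counts for every gene, as deposited by the authors without normalization. Per the study's methods, the labels and the file headers, trimming was by Trimmomatic, alignment to GRCh38 by STAR, duplicate marking by Picard, and counting of exon reads by featureCounts 2.0.0 (reverse strand, primary alignments, Ensembl release 96). Reads on more than 1 gene of a strand were not counted, and near-identical genes are uncertain. The deposited count files are named as deduplicated, whereas the methods say that duplicates were identified and quantified, so whether the counts exclude them is not settled. Labels and methods differ on RNA input, medium and kit.

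All genes with a summed count above 10 were fitted with edgeR 4.0.16 in R 4.3.3 (TMM factors from 0.973 to 1.04, robust quasi-likelihood, Benjamini-Hochberg adjustment over all genes tested, coefficient of variation 7.67%). Calls required an adjusted P value under 0.05 together with a difference over 1.5-fold. The SE is the absolute log2 value divided by the square root of F. The drug difference used all 18 libraries and 24675 genes. The PARP1 level was tested by an exact permutation test. With 3 against 3 libraries such a test cannot go below 0.1, so single genes rest on the edgeR fit. CPM are TMM-normalised, per gene and not per length, except for the cell type markers and their sums, which are scaled to library totals alone.

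Genes were named by rule: the 12 largest called interactions in each direction (protein coding, at least 2 CPM), genes with opposite effects, genes called in PARP1 KO, the 6 largest drug differences in each direction, and in each of 33 lists up to 4 members of smallest adjusted P value and the leading members of its pathway. Some genes counted in the lists are not reported singly here. Members, lists and rules were chosen with earlier results of these data known. Alternatives were RLE factors, filterByExpr or no filter, a block for the replicate number, DESeq2 1.42.0, 18 libraries in the fit, other thresholds, and each library left out. Scaling by library size alone and leaving out 4 libraries were added after seeing the data. Scripts were tested on simulated data. Promoter windows and motif letters are from RefSeq (GRCh38.p14).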

Additional observations from a re-analysis of the deposited data

Results flagged for a closer look

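The niraparib effect differed between the genotypes in 2149 genes by the test of the interaction (edgeR, adjusted P value below 0.05 and more than 1.5-fold). In 3 of these genes of at least 2 CPM both effects passed an adjusted P value of 0.05 in opposite directions, with interactions of -1.14 for MED10, -1.01 for SNHG32 and -0.74 for RRM2 on the log2 scale. The adjusted P value in PARP1 KO stayed under 0.05 in 9 of 21 other settings for MED10 and RRM2 and in 10 for SNHG32. The number of genes with a called interaction was 2156 without the 4 libraries that stand apart. Groups of 3 libraries are too small for the test of a single outlying value, and over the 6 libraries of a genotype PARP1 had none.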

How the results depend on the processing

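The number of genes with a called interaction lay between 1903 and 2303 over 9 other settings at the same threshold and between 1982 and 2226 with each library left out. For niraparib in WT these ranges were 2705 to 3196 and 2689 to 3143. For the niraparib minus olaparib interaction the number was 735 to 904 over 7 other settings and 628 to 898 with each of 18 libraries left out. By the adjusted P value alone the interaction was called in 5567 genes, niraparib in WT in 8367, niraparib in PARP1 KO in 40, the genotypes with DMSO in 321 and the drug difference in 3335. With an absolute log2 change above 1.5 the numbers were 429, 722, 0, 2 and 90. For niraparib in PARP1 KO, 29 genes were called with no filter on low counts, 10 with DESeq2, 73 without the 4 libraries that stand apart, and 0 to 8 with each library left out. For the genotypes with DMSO it was 102 with no filter, 68 without the 4 libraries, and 5 to 42 with each library left out. The cause of these moves was not tested.

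The sources used here do not say whether the replicate numbers pair the samples. Same-numbered libraries of a genotype deviated with correlations from -0.553 to 0.384 and 1 of 6 above 0.1. With 3 libraries a group, 1 of which stands apart, such correlations cannot settle the pairing. With the replicate number as a block the counts were 2038 for the interaction, 2854 in WT, 3 in PARP1 KO, 15 for the genotypes with DMSO and 766 for the drug difference. With a block within genotype they were 1903, 2705, 1, 3 and 735.

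With library size as the only scaling, chosen after seeing the data, the interaction was called in 674 genes above 0 and 1629 below. For single genes, 14864 values stayed on their side of the threshold under an alternative, 336 of them uncalled values that changed sign by less than their SE. A call was lost in 206 cases and gained in 115, 35 uncalled values changed sign by more than their SE, and no called value changed sign. List medians stayed within the spread in 557 cases and moved in 136, with a change of sign for LXR, luminal transcription factors, keratins and MHC class I. Depth limits genes of low level, as for KRT17, whose interaction had an SE of 0.74.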

Other observations

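The following gene families were chosen after their values were seen and carry no test as groups. Of 51 replication-dependent histone genes tested, 16 were called above 0 and none below, against 3.50% of all genes above 0, with a median interaction of 0.66 (-0.68 in WT and 0.0063 in PARP1 KO). The median lay between 0.60 and 0.78 over the other settings. Most of the family was low, with a median level of 0.304 CPM, and called members such as H4C12 and H2BC17 lay below 1 CPM in every library. Among the more abundant members H2BC8 had an interaction of 1.66, H2BC4 of 1.21 and H2BC21 of 1.18, each a histone H2B gene. Called members of comparable level with smaller interactions were H2AC6 (0.70), H2BC5 (0.66) and H2BC12 (0.63). Histone mRNAs mostly lack a poly(A) tail and these libraries were made from poly(A) RNA, so their counts cover a part of these transcripts. Of 39 kinesin genes 7 were called above 0 and 2 below (median 0.21), where 5.68% of all genes were called below 0.

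Of 241 protein coding ZNF genes on chromosome 19, 1 was called above 0 and 76 below, against 5.68% of all genes below 0, with a median interaction of -0.44 (0.42 in WT and -0.055 in PARP1 KO) that lay between -0.50 and -0.39 over the other settings. Of 252 ZNF genes elsewhere 4 were called above 0 and 63 below (median -0.37). Many of them share similar sequence, and reads counted at 1 of several alignments make single members uncertain. Chromosome 19 as a whole had 3.66% of 1610 genes called above 0 and 8.51% below. Of 79 ribosomal protein genes 1 was called, RPS27L, below 0, and the median was 0.06 (0.0013 to 0.11 over the other settings). Of 25 small nucleolar RNA host genes 3 were called above 0 and 7 below (median -0.20), and of 260 solute carrier genes 13 and 19 (median -0.043, from -0.10 to 0.0082 and so of changing sign), beside 3.50% of all genes above 0 and 5.68% below.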
